A study of Mus musculus with 24 samples.

Results

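The Myc and Max network was followed through 24 RNA-seq libraries of sorted mouse bone marrow cells. Its members were taken by gene symbol from the deposited table of normalised counts: the 3 Myc genes Myc, Mycn and Mycl, their obligate partner Max, and the Max or Mlx-binding antagonists Mxd1, Mxd3, Mxd4, Mxi1, Mnt and Mga. All 10 members were among the 26267 genes of the table, and 9 of the 10 passed the filter on low values, Mycl being the exception. The cells were lineage-negative bone marrow cells carrying Sca-1 and Kit (LSK cells), a fraction that holds blood stem cells and early progenitors. The 4 genotypes were wild type (WT), Fancg knockout (FancgKO), Mdm4 transgenic (Mdm4Tg) and the combination of knockout and transgene (FancgKO_Mdm4Tg). The product of Fancg belongs to the Fanconi anaemia core complex that starts repair of DNA crosslinks, and Mdm4 encodes an inhibitor of p53. Mice of each genotype received either the saline vehicle PBS or poly(I:C), a synthetic RNA that mimics viral RNA and elicits interferon. The PBS groups held 4 WT, 4 FancgKO, 3 Mdm4Tg and 3 FancgKO_Mdm4Tg libraries, and the poly(I:C) groups held 3 WT, 3 FancgKO, 2 Mdm4Tg and 2 FancgKO_Mdm4Tg libraries. Dose, timing, age, the promoter of the transgene and the number of animals behind a library are not given in the sources used here. The p-values therefore measure the spread between these samples, which may be technical.

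Myc proteins are transcription factors that bind DNA as heterodimers with Max, mostly at the E-box CACGTG, and raise genes of ribosome production, metabolism and the cell cycle. The Mxd proteins, Mxi1 and Mnt compete for Max, recruit Sin3 co-repressors and lower many of the same genes, while Mga joins Max in a Polycomb complex called PRC1.6. In blood stem cells, Myc is known for balancing self-renewal against differentiation, and Mycn is the Myc family member expressed beside it in the most immature cells.

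The promoters of the 3 members that were called lower with poly(I:C) in the main fit are shown here. RefSeq promoter windows of GRCm38.p6, 250 bases before to 50 bases after a start, were found for 9 of the 10 members. Myc had no entry. The sequences below run 5′ to 3′ on the gene's strand and end where the annotated gene begins. Capitals mark CACGTG in Mxd4 and the E2F-type letters TTTGGCGC and TTTCGCGC in Mycn, where a copy of TTTCGCGC on the other strand overlaps the upstream copy of TTTGGCGC.
Mycn, chr12:12941915-12942086, minus strand: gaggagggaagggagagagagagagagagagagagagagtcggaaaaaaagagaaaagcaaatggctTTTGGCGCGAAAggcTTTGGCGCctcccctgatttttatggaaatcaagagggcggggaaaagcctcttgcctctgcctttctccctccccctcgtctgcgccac
Mxd4, chr5:34187721-34187960, minus strand: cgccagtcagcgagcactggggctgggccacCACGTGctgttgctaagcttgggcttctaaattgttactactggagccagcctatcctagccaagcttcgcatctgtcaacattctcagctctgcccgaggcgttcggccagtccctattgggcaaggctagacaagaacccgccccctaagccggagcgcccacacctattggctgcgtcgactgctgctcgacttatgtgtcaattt
Mga, chr2:119896978-119897227, plus strand: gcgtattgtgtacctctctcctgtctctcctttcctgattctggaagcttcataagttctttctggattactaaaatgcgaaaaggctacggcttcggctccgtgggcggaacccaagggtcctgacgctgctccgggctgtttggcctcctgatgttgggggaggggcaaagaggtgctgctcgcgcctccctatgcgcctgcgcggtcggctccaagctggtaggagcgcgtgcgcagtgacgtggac

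CACGTG was searched on both strands of the full windows of 300 bases. It occurred in Mxd4, starting 219 bases before the start, in Mnt, 123 bases before it, and in Max, 3 bases before it, and 7.15% of all 32851 windows held it. TTTGGCGC occurred in 0.514% of the windows and TTTCGCGC in 0.323%. Of the members, Mycn alone held either, with TTTGGCGC beginning 183 and 168 bases before the start and TTTCGCGC at 179. All these positions count back from the RefSeq start within the window. The printed Mycn and Mxd4 sequences stop 78 and 10 bases before that start. No member window held an interferon-stimulated response element core, which 3.44% of all windows held. These matches describe letters and say nothing of binding.

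The libraries held 807686 to 8229715 reads, and those from mice given poly(I:C) were deeper (median 4.25 M against 1.54 M with PBS). Kit lay between 1483 and 2414 normalised counts in every library, whereas the Sca-1 gene Ly6a was low, at 11.7 to 45.9. Among the markers of mature cells, the medians of the T cell genes Cd3e and Cd8a, the B cell gene Ms4a1 and the granulocyte gene Ly6g were 0. The WT and FancgKO libraries numbered 6 with PBS stood apart from the other 12 PBS libraries. Their summed level of 10 granulocyte and monocyte progenitor markers was 13143 and 14327, while the other 12 ran from 1603 to 6243. Xist, the RNA of the inactive X chromosome in female cells, exceeded 1000 in 5 libraries, which are replicates 6 and 7 of FancgKO with PBS, replicate 6 of FancgKO with poly(I:C), and replicates 6 and 7 of WT with poly(I:C). The results on poly(I:C) were also computed without the 2 PBS libraries numbered 6 and with the 19 libraries of low Xist.

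Myc was by far the most abundant transcript of the network per length, and Mycl was near absence. Per kilobase of exon, averaged over the 24 libraries, Myc stood at 278.6 ± 51.4 normalised counts (SD), above Mga at 69.2 ± 9.76 and Max at 59.8 ± 8.03. Mga and Max overlapped, Mga being the higher in 18 of 24 libraries, and both were above Mycn in level per kilobase. Mycn followed at 26.1 ± 8.02 per kilobase and Mxd4 at 25 ± 4.89, with Mycn higher in 12 of 24 libraries, so this pair could not be ordered. Below them came Mnt at 18.7 ± 3.09, Mxi1 at 14.8 ± 2.20 and Mxd1 at 11.4 ± 2.00, neighbours whose ranges overlapped, although Mxi1 exceeded Mxd1 in 22 of 24 libraries. Mxd3 followed at 4.37 ± 1.15, and Mycl at 0.693 ± 0.412 per kilobase was last in every library. Mycl had no read in 2 libraries and at most 3 reads in 16. A count of 3 reads corresponds to 0.924 to 9.80 normalised counts depending on depth, so no difference in Mycl could be read. The ranking uses the summed exon length of GENCODE M21, which may exceed the length of the transcripts present.

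**Figure D1:**
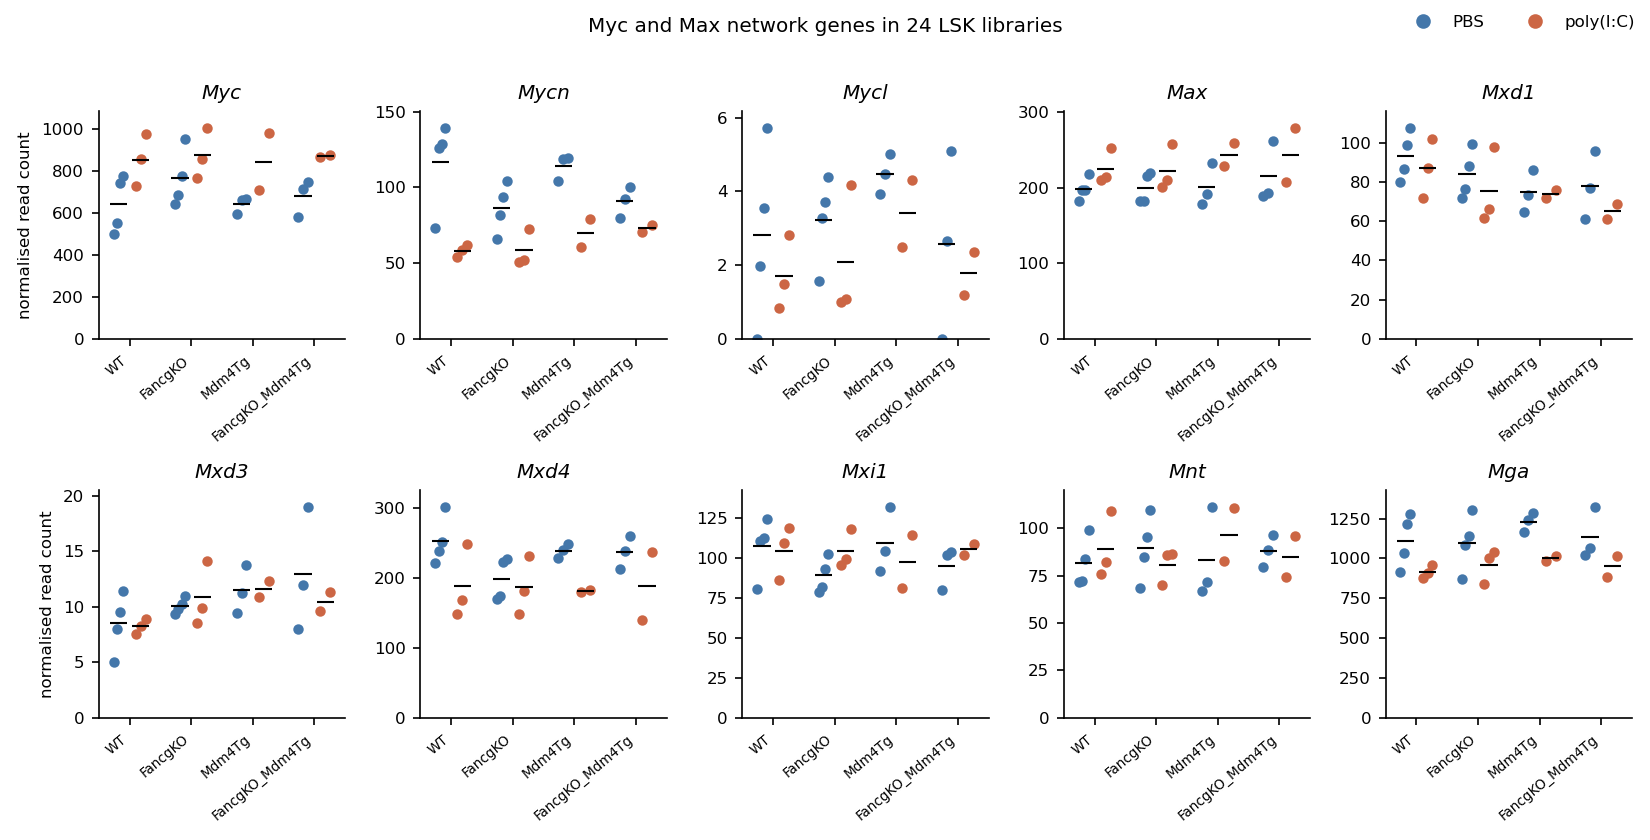
Normalised read counts of the 10 members (y axes, each from 0) in the 4 genotypes (x axes), 1 point per library, PBS in blue and poly(I:C) in orange, with a bar at each group mean. Mycn lay lower with poly(I:C) than with PBS, without overlap, in WT, Mdm4Tg and FancgKO_Mdm4Tg, and Mycl stayed below 6 normalised counts everywhere.

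Poly(I:C) was accompanied by opposite differences in the 2 main Myc genes. Averaged over the 4 genotypes (10 poly(I:C) and 14 PBS libraries), Myc rose 1.27-fold and Mycn fell to 0.646 of its PBS level. The antagonists Mxd4 and Mga also fell, while Max, Mxd1, Mxd3, Mxi1 and Mnt did not pass the test. Thus 1 of 9 members was called higher and 3 lower by limma at an adjusted p of 0.05, with Benjamini-Hochberg adjustment over 12628 genes. Of all genes tested, 11.9% were called higher and 11.6% lower in this comparison, 23.6% in either direction. With the replicate number as a block, Max was called as well and Mga was not. In that fit 16% of all genes were called higher and 14.9% lower. Differences are given on the scale of log2(normalised count + 1) with the standard error. The median difference was -0.03 over the 9 members and 0.01 over all genes. Fewer cells of a type and less RNA per cell cannot be told apart in these bulk samples.

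Myc (ENSMUSG00000022346, chr15:61985391-61990374 of GRCm38, plus strand) is the family's most widely used member and drives growth and division. With PBS its normalised counts were 497.8, 549.6, 742.5 and 772.5 in WT and 642.2, 685.5, 772.7 and 950.6 in FancgKO. They were 594.9, 661.4 and 665.9 in Mdm4Tg and 578.1, 713.3 and 746.0 in FancgKO_Mdm4Tg. With poly(I:C) they were 724.6, 854.7 and 975.5 in WT, 763.1, 856.5 and 1002.3 in FancgKO, 707.0 and 976.5 in Mdm4Tg, and 863.7 and 872.2 in FancgKO_Mdm4Tg. The poly(I:C) libraries lay above the PBS libraries without overlap in Mdm4Tg and FancgKO_Mdm4Tg, where 18.1% and 11.7% of all genes did the same, and overlapped them in WT and FancgKO. The averaged log2 difference of Myc was 0.34 ± 0.09, with a 95% interval of 0.15 to 0.54 and a limma adjusted p of 0.0132. The call rests on Mdm4Tg replicate 7 with poly(I:C), without which the difference was 0.28 at a limma adjusted p of 0.0516. In the 19 libraries with low Xist it was 0.31 at 0.0525. Mycs, a gene on the X chromosome, bears a similar name. Its sequence was not compared with those of Myc and Mycn, and how reads common to several genes were counted is not stated.

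Mycn (ENSMUSG00000037169, chr12:12936093-12941914 of GRCm38, minus strand) encodes N-Myc, the form prominent in embryonic and stem cells. With PBS its normalised counts were 73.4, 126.4, 128.8 and 139.2 in WT and 65.7, 82.0, 94.0 and 104.5 in FancgKO. They were 104.1, 118.8 and 119.6 in Mdm4Tg and 79.6, 92.3 and 100.3 in FancgKO_Mdm4Tg. With poly(I:C) they were 54.1, 58.5 and 62.1 in WT, 50.4, 52.3 and 72.7 in FancgKO, 60.7 and 79.2 in Mdm4Tg, and 70.8 and 75.5 in FancgKO_Mdm4Tg. The groups did not overlap in WT, Mdm4Tg and FancgKO_Mdm4Tg, and 2.39% of all genes were lower without overlap in at least 3 of the 4 genotypes. In FancgKO only replicate 7 with poly(I:C) reached into the PBS range. The 2 PBS libraries numbered 6 held the lowest Mycn of all 14 PBS libraries, 65.7 and 73.4. The averaged log2 difference was -0.63 ± 0.11, with a 95% interval of -0.87 to -0.39 and a limma adjusted p of 9.84e-04. Mycn passed under every alternative run, with limma, edgeR or DESeq2 adjusted p-values from 3.70e-06 to 0.0439, and without the 2 PBS libraries numbered 6 the log2 difference was -0.71.

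The 2 Myc genes can also be set against each other within a library, per kilobase of exon. The ratio of Myc to Mycn ran from 4.34 to 14.3 with PBS (median 8.02, 14 libraries) and from 12.7 to 24.1 with poly(I:C) (median 15.6, 10 libraries). In WT it was 4.34, 5.27, 6.99 and 12.8 with PBS and 16.2, 16.7 and 20.2 with poly(I:C). The Mdm4Tg libraries had ratios of 6.07 to 7.76 under PBS and of 14.1 and 15.0 under poly(I:C), and the FancgKO_Mdm4Tg libraries 6.99 to 10.9 and then 14.0 and 14.8. These 3 genotypes showed no overlap between treatments. The ratio restates the opposite differences of the 2 genes given above and is not separate evidence. Ratios of other gene pairs were not computed. The FancgKO ratios, 8.29 to 14.3 under PBS and 12.7 to 24.1 under poly(I:C), overlapped through 1 library on each side, replicate 6 with PBS and replicate 7 with poly(I:C).

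**Figure D2:**
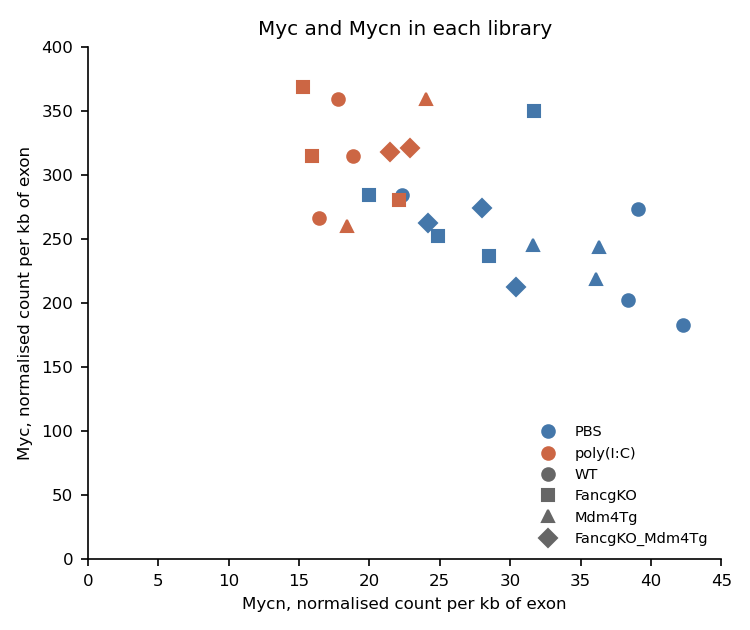
Myc (y axis) against Mycn (x axis), both in normalised counts per kilobase of exon, 1 point per library, with PBS in blue, poly(I:C) in orange and genotypes by symbol. The poly(I:C) libraries sit at the upper left, with ratios of Myc to Mycn of 12.7 to 24.1, and the PBS libraries run from 4.34 to 14.3.

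Max (ENSMUSG00000059436, chr12:76937269-76962201 of GRCm38, minus strand), the shared partner through which Myc proteins bind the E-box, had 178.8 to 262.5 normalised counts with PBS (median 195.6). With poly(I:C) it had 200.8 to 279.2 (median 221.4), and the treatments overlapped in every genotype. The averaged log2 difference was 0.20 ± 0.08, with a 95% interval of 0.03 to 0.37 and a limma adjusted p of 0.0868, so Max was not called. Limma did call it with the replicate number as a block (0.26, limma adjusted p = 0.00789) and with the suffix of the sample titles as a covariate. By edgeR it was called, at 0.21 with an adjusted p of 0.0487, as it was by limma without FancgKO_Mdm4Tg replicate 2 with PBS (0.23, 0.0395) or FancgKO_Mdm4Tg replicate 7 with poly(I:C) (0.25, 0.0377).

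Of the antagonists, Mxd4 and Mga passed the test. Mxd4 (ENSMUSG00000037235, chr5:34173883-34187720 of GRCm38, minus strand) encodes the Mad protein associated with quiescent and differentiated cells. Its normalised counts with PBS were 221.2, 238.0, 251.3 and 301.0 in WT, 169.5, 173.1, 222.4 and 226.4 in FancgKO, 227.9, 239.6 and 248.1 in Mdm4Tg, and 212.1, 238.0 and 259.6 in FancgKO_Mdm4Tg. With poly(I:C) they were 147.7, 167.4 and 248.4 in WT, 148.3, 180.3 and 231.2 in FancgKO, 180.1 and 182.6 in Mdm4Tg, and 140.1 and 236.0 in FancgKO_Mdm4Tg. Treatments were separated in Mdm4Tg only, where 18.9% of all genes were lower without overlap, and replicate 7 was the highest poly(I:C) library in the other 3 genotypes. The averaged log2 difference of Mxd4 was -0.33 ± 0.11 (95% interval -0.55 to -0.11, limma adjusted p = 0.0299). That call was lost when any of 7 poly(I:C) libraries was left out, FancgKO_Mdm4Tg replicate 8 (-0.23, limma adjusted p = 0.137), FancgKO replicates 6 and 8, Mdm4Tg replicates 7 and 8, or WT replicates 6 and 8, the last 6 giving -0.33 to -0.29 at 0.0516 to 0.0594. It was also lost without the filter on low values (limma adjusted p = 0.0535) and with log depth as a covariate (-0.20, 0.314). Annotated exons of the antisense gene Gm42846 cover 514 bases of Mxd4 exon, and whether counting used the strand is not stated.

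Mga (ENSMUSG00000033943, chr2:119897228-119969581 of GRCm38, plus strand) encodes the large Max-binding scaffold of PRC1.6. With PBS its normalised counts were 914.0, 1035.1, 1213.7 and 1276.0 in WT and 872.2, 1082.4, 1140.1 and 1301.7 in FancgKO. They were 1162.9, 1240.1 and 1285.5 in Mdm4Tg and 1020.2, 1066.0 and 1323.2 in FancgKO_Mdm4Tg. With poly(I:C) they were 879.2, 907.0 and 959.7 in WT, 841.0, 1001.8 and 1038.8 in FancgKO, 986.0 and 1013.2 in Mdm4Tg, and 886.3 and 1013.6 in FancgKO_Mdm4Tg. Mga was thus lower without overlap in the 2 transgenic genotypes, where 18.9% and 12.2% of all genes were, and overlapped in the other 2. The averaged log2 difference was -0.25 ± 0.08 (95% interval -0.41 to -0.09, limma adjusted p = 0.0240). With the replicate number as a block, Mga stood at -0.16 and was not called (limma adjusted p = 0.0510). It was no longer called without FancgKO_Mdm4Tg replicate 8 (-0.23, limma adjusted p = 0.0763), FancgKO replicate 6 (-0.23, 0.0523) or Mdm4Tg replicate 8 (-0.25, 0.0504), all with poly(I:C), without the filter on low values (0.0532) or with log depth as a covariate (-0.21, 0.165).

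The other antagonists did not pass, and their treatments overlapped in each genotype. Mxd1, the first Mad protein described, had 61.2 to 107.5 normalised counts under PBS and 61.1 to 102.0 with poly(I:C), and its averaged log2 difference had a 95% interval of -0.35 to 0.09. Mxd3, the Mad protein found in cycling cells, had 5.02 to 19.0 and 7.51 to 14.1, with a wide interval of -0.40 to 0.35 at these low counts. Mxi1 had 78.3 to 131.6 under PBS and 80.9 to 118.3 with poly(I:C), with an interval of -0.16 to 0.26. Mnt, the antagonist expressed in most dividing cells, had 66.8 to 111.3 and 70.2 to 110.9, with an interval of -0.19 to 0.27. These intervals allow differences as large as that of Mga in at least 1 direction, and so do not show that these genes were unaffected. Mxd3 shares 105 exon bases with Prelid1 and Mxi1 shares 194 with Gm10197, both on the opposite strand.

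**Figure D3:**
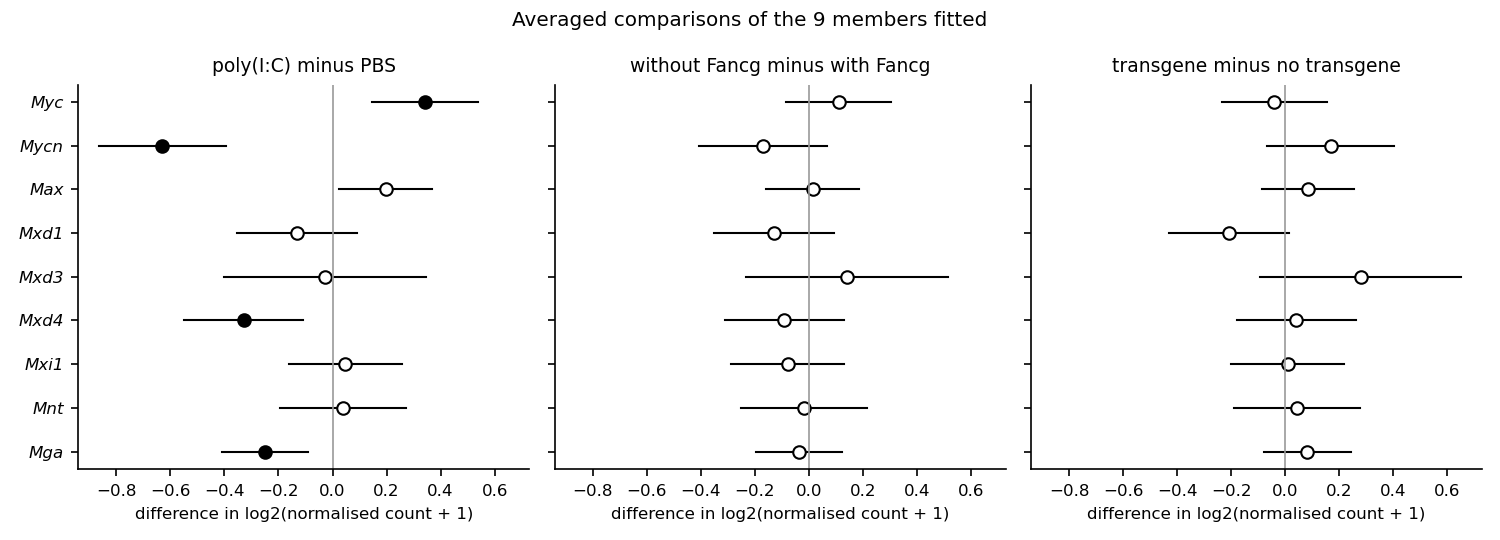
Difference in log2(normalised count + 1) (x axes) of the 9 members fitted (rows) for poly(I:C), Fancg loss and the Mdm4 transgene, each averaged over the other factors. Circles are limma estimates with 95% intervals, filled where the adjusted p was under 0.05, which holds for Myc (0.34), Mycn (-0.63), Mxd4 (-0.33) and Mga (-0.25) with poly(I:C) and for no member in the other panels.

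Markers of other progenitor states moved with poly(I:C) in the same libraries. Beside the counts that follow, 11.9% of all genes were called higher and 11.6% lower in the averaged comparison. All 10 granulocyte and monocyte progenitor markers were called higher, and their summed level ran from 1603 to 14327 under PBS and from 6043 to 23514 with poly(I:C). All 6 erythroid markers tested were higher, with sums of 40.9 to 375.7 and 203.0 to 1069 that include Hba-a1. That gene, with a median of 0, was too low to be tested, and Hbb-bt had no entry. Conversely, 6 of 8 stem cell markers were lower (sums of 1180 to 3202 under PBS and 798.0 to 1961 with poly(I:C)), as were 5 of 8 lymphoid progenitor markers (1008 to 3786 and 567.8 to 1537) and 5 of 8 genes of the LSK gate (4400 to 6584 and 3439 to 4917). As single examples, the neutrophil granule enzyme gene Mpo rose by a log2 of 1.78, and the stem cell regulator Mecom and the lymphoid enzyme gene Dntt fell by 1.30 and 1.70. Of 6 cell division genes 3 were higher, with sums of 5029 to 6914 and 5873 to 6774, and the proliferation marker Mki67 had a difference of 0.13 at a limma adjusted p of 0.292. The part of these shifts in the members' differences was not tested. With log depth as a covariate 2 members remained called, and 610 genes were called in place of 2974. In that fit Myc stood at 0.41 (limma adjusted p = 0.0490), Mycn at -0.50 (0.0439), Mxd4 at -0.20 (0.314) and Mga at -0.21 (0.165). Without the 2 PBS libraries numbered 6, 4 members were called, and Myc stood at 0.37, Mxd4 at -0.32 and Mga at -0.27.

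Within WT, FancgKO and Mdm4Tg, Mycn had the largest difference of the members, whereas in FancgKO_Mdm4Tg those of Mxd4 and Myc were larger. Its log2 difference was -0.95 ± 0.21 in WT (n = 3 and 4), -0.56 ± 0.21 in FancgKO (n = 3 and 4), -0.71 ± 0.25 in Mdm4Tg (n = 2 and 3) and -0.30 ± 0.25 in FancgKO_Mdm4Tg (n = 2 and 3). Of the 9 members 0 were called in any genotype by limma, where the share of all genes called was 0.0158% in WT and 0% in the other 3 genotypes. In WT, Mycn missed the threshold at a limma adjusted p of 0.0606. WT samples with the same number paired, as described with the processing, and with that number as a block Mycn was called, at -0.91 with a limma adjusted p of 0.00299, where 3.63% of all genes were called lower. Without the 2 PBS libraries numbered 6, which include WT replicate 6, it stood at -1.16 with a limma adjusted p of 0.00313. With log depth as a covariate, Mycn in WT was not called (-0.88, limma adjusted p = 0.101). Xist was 5943 and 20207 in WT replicates 6 and 7 with poly(I:C), and at most 24.8 in WT with PBS. The libraries of low Xist thus kept only WT replicate 8 with poly(I:C), and Mycn stood at -1.06 there. Resting on that library, this fit cannot separate Xist from treatment in WT. At an unadjusted p under 0.05, WT had 3 members (Myc, Mycn and Mxd4), FancgKO and Mdm4Tg had 1 each (Mycn), and FancgKO_Mdm4Tg had 0. Of all genes, 14.9%, 7.24%, 12.7% and 8.57% passed that threshold in these 4 genotypes, so 1 of 9 members is near the share of all genes. By edgeR 0 were called in each genotype, and DESeq2 called 1 in WT and 0 in the others. With the replicate number as a block, limma also called Mycn in Mdm4Tg, at -0.70 with a limma adjusted p of 0.0464. In that fit 2.57% of all genes were called lower in Mdm4Tg.

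Myc differences were 0.43 ± 0.17 in WT, 0.20 ± 0.17 in FancgKO, 0.38 ± 0.20 in Mdm4Tg and 0.36 ± 0.20 in FancgKO_Mdm4Tg, all positive and none called. Whether the poly(I:C) response differed with Fancg was tested directly over both transgene states. The response of Mycn was less negative without Fancg by 0.40 ± 0.23, with a 95% interval of -0.07 to 0.87, an unadjusted p of 0.0903 and a limma adjusted p of 1.00. That of Myc differed by -0.12 ± 0.19 (95% interval -0.51 to 0.27). Between genotypes with and without the Mdm4 transgene, the Mycn response differed by 0.25 ± 0.23 (95% interval -0.22 to 0.72) and that of Myc by 0.05 ± 0.19 (-0.33 to 0.44). For both tests of a difference in response, 0 of 9 members and 0% of all genes were called by limma, and 0 members at an unadjusted p under 0.05, by edgeR or by DESeq2. The response of Mycn was therefore not shown to differ between genotypes, and the intervals are wide enough to hold sizeable differences.

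**Figure D4:**
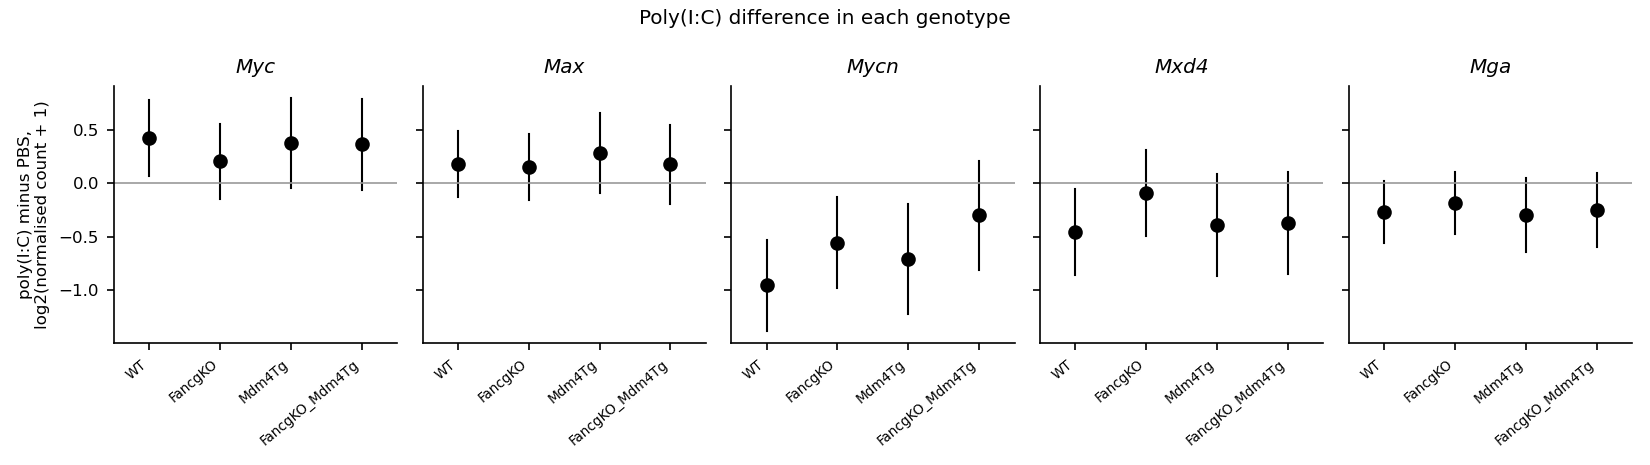
Poly(I:C) minus PBS difference in log2(normalised count + 1) (y axis) of Myc, Max, Mycn, Mxd4 and Mga in each genotype (x axes), as limma estimates with 95% intervals. Mycn is below 0 in all 4 genotypes, from -0.95 in WT to -0.30 in FancgKO_Mdm4Tg, and Myc is above 0 in all 4, from 0.20 to 0.43.

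Neither Fancg loss nor the Mdm4 transgene gave a called difference in any member. Averaged over transgene and treatment, the members' log2 differences with Fancg loss lay between -0.17 (Mycn, 95% interval -0.40 to 0.07) and 0.14 (Mxd3, -0.23 to 0.52), and that of Myc was 0.11 (-0.09 to 0.30). Averaged over Fancg genotype and treatment, those with the transgene lay between -0.21 (Mxd1, -0.43 to 0.01) and 0.28 (Mxd3, -0.09 to 0.65), with Myc at -0.04 (-0.24 to 0.15) and Mycn at 0.17 (-0.07 to 0.40). Of 9 members 0 were called by limma in both, where 0.0158% and 0.00792% of all genes were called. By edgeR, DESeq2 and at an unadjusted p under 0.05 the count was also 0.

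FancgKO against WT with PBS was the comparison of genotypes in which a member had an unadjusted p under 0.05. As given above, Mycn was at 65.7 to 104.5 in FancgKO and 73.4 to 139.2 in WT, ranges that overlap. The log2 difference was -0.41 ± 0.19 (95% interval -0.80 to -0.01, unadjusted p = 0.0433, limma adjusted p = 0.999, n = 4 and 4). In that comparison Mxd4 stood at -0.36 ± 0.18 (-0.73 to 0.01) and Myc at 0.26 ± 0.16 (-0.07 to 0.59). Of 9 members 0 were called by limma, edgeR or DESeq2, where 0% of all genes were called. At an unadjusted p under 0.05 there was 1 (Mycn), and 3.94% of all genes passed that threshold. With only the 19 libraries of low Xist, the same comparison gave -0.37 for Mycn, -0.37 for Mxd4 and 0.08 for Myc. The other 5 comparisons of genotypes within a treatment called 0 members as well, with 0 members at an unadjusted p under 0.05 and 0 by edgeR or DESeq2, and at most 0.00792% of all genes.

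Among the genes that Myc is known to activate, nearly all calls under poly(I:C) were higher. Of 49 textbook Myc targets, 24 were called higher (49.0%, against 11.9% of all genes) and 1 lower, and 46 had a positive difference (93.9%, against 51.8% of all genes). Their median log2 difference was 0.31, against 0.01 over all genes. The list was chosen with earlier results of these data known, so these contrasts are descriptions and not a test of the list. The largest called rises were in Srm, the spermidine synthase gene, at 0.87 ± 0.23, Slc16a1, a lactate transporter gene, at 0.72 ± 0.16, and Eno1, a glycolytic enzyme gene, at 0.68 ± 0.22 (limma adjusted p = 0.0106, 0.00369 and 0.0269). Srm had 30.6 to 214.7 normalised counts under PBS and 106.5 to 254.7 with poly(I:C), Slc16a1 had 205.7 to 440.2 and 332.7 to 848.6, and Eno1 had 31.8 to 169.4 and 93.3 to 194.3, so the treatments overlapped for each. Eno1 has a near-identical copy, Eno1b, and is uncertain. The target called lower was Tert, the telomerase gene, at -0.96 ± 0.28 (limma adjusted p = 0.0189), with 3.27 to 27.9 normalised counts under PBS and 3.30 to 15.2 with poly(I:C).

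The count of targets depended on single libraries and on depth. It was 12 without FancgKO replicate 6, 13 without FancgKO_Mdm4Tg replicate 8 and 13 without Mdm4Tg replicate 7, all with poly(I:C), and it was 15 in the libraries with low Xist. With log depth as a covariate it was 1, and Srm (0.90, limma adjusted p = 0.0755), Slc16a1 (0.40, 0.147), Eno1 (0.72, 0.113) and Tert (-0.98, 0.103) were not called. Of the 12628 genes tested, 610 were called in either direction in that fit, against 2974 in the main fit. Without FancgKO_Mdm4Tg replicate 8 with poly(I:C), 1554 genes were called. The count of targets thus fell together with that of all genes in these 2 fits. Eno1 was also not called with low Xist (0.67, limma adjusted p = 0.0596). The count was 31 without the 2 PBS libraries numbered 6. The Tert call was lost without FancgKO_Mdm4Tg replicate 8 with poly(I:C) (-0.73, limma adjusted p = 0.0902), and that of Eno1 without any of 4 poly(I:C) libraries, FancgKO_Mdm4Tg replicates 7 and 8, FancgKO replicate 6 and Mdm4Tg replicate 7 (0.62 to 0.72, 0.0504 to 0.0698). By genotype, limma called 0 of the 49 targets, and 45 were positive in WT (median 0.34), 43 in FancgKO (0.15), 44 in Mdm4Tg (0.42) and 47 in FancgKO_Mdm4Tg (0.32). With the block on replicate number, 9 were called higher in WT, where 3.25% of all genes were.

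Among the cofactors and modifiers of the network, the shares called higher were near that of all genes, 11.9%. Of 15 Myc cofactors, 2 were called higher (13.3%) and 0 lower, namely Ruvbl1, a helicase of chromatin complexes, at 0.39 ± 0.10, and Hcfc1, a scaffold that binds Myc, at 0.28 ± 0.07. Among the regulators of Myc protein turnover, the mitotic kinase gene Aurka was called higher, at 0.42 ± 0.12. In the same list 2 were lower, the kinase gene Pim1 at -0.49 ± 0.11 and the deubiquitinase gene Usp22 at -0.19 ± 0.06. Pim1 ran from 287.0 to 451.5 normalised counts with PBS and from 152.5 to 333.6 with poly(I:C). Of 10 genes tested from the MLX branch and the Mxd co-repressors, 1 was higher (10%), Mlx, the Max-like partner of Mnt and some Mxd proteins, at 0.63 ± 0.14. Mlx ran from 27.2 to 80.5 under PBS and from 45.6 to 97.2 with poly(I:C), so the treatments overlapped. With log depth as a covariate the calls of Mlx (0.38, limma adjusted p = 0.143), Ruvbl1 (0.39, 0.0772), Hcfc1 (0.26, 0.0974), Aurka (0.38, 0.133) and Pim1 (-0.40, 0.0964) were lost. In the libraries with low Xist Hcfc1 (0.23, 0.0698) and Usp22 (-0.13, 0.249) were not called. Usp22 also lost its call without the filter on low values (limma adjusted p = 0.0617) and without any of 9 libraries (limma adjusted p = 0.0510 to 0.0831), namely with PBS FancgKO_Mdm4Tg replicate 7, Mdm4Tg replicates 2 and 8 and WT replicate 8, and with poly(I:C) FancgKO_Mdm4Tg replicate 8, FancgKO replicate 6, Mdm4Tg replicate 7 and WT replicates 6 and 7.

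Of 11 PRC1.6 partners of Mga, 2 were called higher (18.2%) and 0 lower, L3mbtl2, which encodes a chromatin-binding subunit, at 0.47 ± 0.14 and Tfdp1, the E2F dimerisation partner, at 0.40 ± 0.11, while Mga itself fell. The L3mbtl2 call was lost without Mdm4Tg replicate 7 with poly(I:C) (0.37, limma adjusted p = 0.0864), and that of Tfdp1 without FancgKO_Mdm4Tg replicate 8 with poly(I:C) (0.30, 0.0618) and under the depth covariate (0.26, 0.199). L3mbtl2 was not called in the libraries with low Xist (0.40, limma adjusted p = 0.0995). Of 8 tested genes that Myc represses, 1 was higher (12.5%) and 1 lower. These were Cebpa, the granulocyte lineage regulator, at 0.89 ± 0.15 with 58.0 to 166.5 normalised counts under PBS and 148.7 to 254.2 with poly(I:C), and Ndrg1, a stress-response gene, at -0.34 ± 0.11. The Ndrg1 call was lost under the depth covariate (-0.39, limma adjusted p = 0.101), with low Xist (-0.33, 0.110), without the filter on low values (0.0565) and without any of 8 libraries (-0.32 to -0.27, 0.0520 to 0.129). These were FancgKO_Mdm4Tg replicates 7 and 8 and Mdm4Tg replicate 8 with PBS, and FancgKO_Mdm4Tg replicate 8, FancgKO replicates 6 and 8, Mdm4Tg replicate 7 and WT replicate 6 with poly(I:C). The medians of these lists lay between -0.04 and 0.12.

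**Figure D5:**
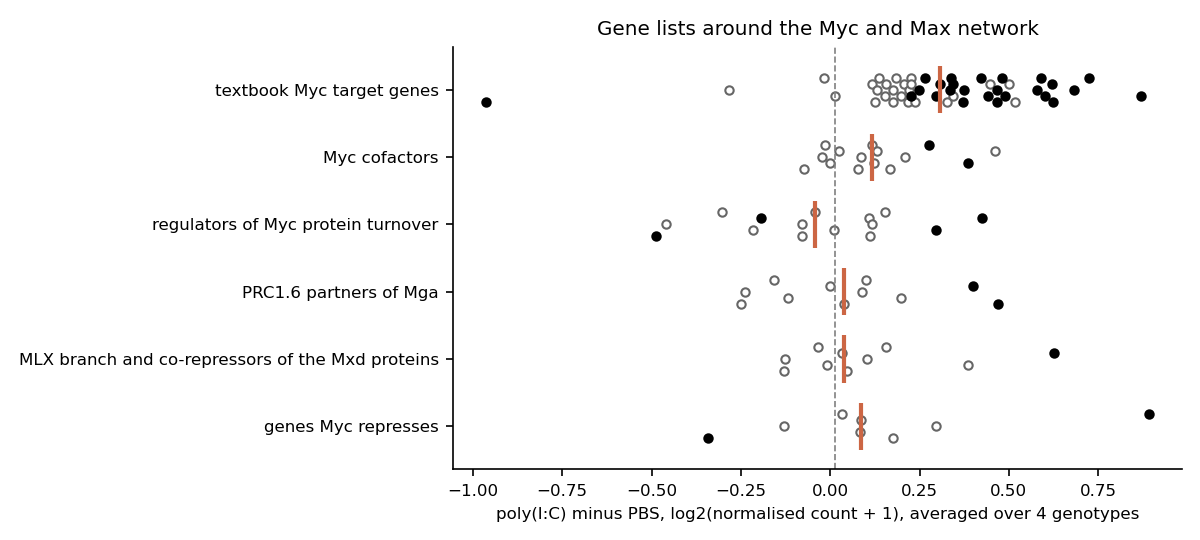
Averaged poly(I:C) minus PBS difference in log2(normalised count + 1) (x axis) of each tested gene in 6 lists (rows), filled where the limma adjusted p was under 0.05. Orange bars are list medians and the dashed line is the median of all genes (0.01), and the Myc targets have the highest list median, 0.31.

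Pvt1, the long noncoding RNA gene beside Myc, showed its larger difference with Fancg and not with poly(I:C). Its normalised counts ran from 7.63 to 16.8 in WT and 13.0 to 40.7 in FancgKO with PBS, from 9.82 to 19.5 in Mdm4Tg and 21.2 to 27.2 in FancgKO_Mdm4Tg with PBS. With poly(I:C) they were 14.7 to 22.3 in WT, 20.6 to 25.5 in FancgKO, 15.4 and 15.8 in Mdm4Tg, and 20.3 and 28.8 in FancgKO_Mdm4Tg. Averaged over transgene and treatment, Fancg loss gave a log2 difference of 0.77 ± 0.19 at a limma adjusted p of 0.657, so Pvt1 was not called. With the replicate number as a block, that average was 0.87 and was called (limma adjusted p = 0.0188). FancgKO against WT with PBS gave 1.35 ± 0.33 (limma adjusted p = 0.583). With the replicate block, which applies to this paired comparison, Pvt1 was called at a limma adjusted p of 0.0223. In the 19 libraries with low Xist and without the block, the PBS difference was 1.01 and the averaged Fancg difference 0.72. The averaged poly(I:C) difference was 0.11 ± 0.19 (limma adjusted p = 0.703).

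Across the 24 libraries the genes with the most similar profiles differed from member to member. The measure was Pearson's r of log2(normalised count + 1) among 7290 genes with a mean of at least 50, given without a p, since libraries share treatment, depth and cell composition. Myc was closest to Pus1, a pseudouridine synthase gene (r = 0.904), Nomo1 (0.901) and E2f4 (0.888). Mycn was closest to Gm19590 (0.902), the polarity gene Pard3b (0.900) and the transcriptional repressor gene Zeb1 (0.897). For Max these were Abce1 (0.865), Snhg6 (0.859) and Zfas1 (0.857), the first a ribosome recycling factor gene and the others noncoding snoRNA host genes. Mxd4 was closest to Itpr2 (0.884), Znrf1 (0.875) and Trio (0.871), and Mga to Zfp280d (0.936), Zcchc7 (0.928) and Tcf7l2 (0.915). For the other antagonists with a mean of at least 50 the highest r was lower, at 0.660 for Mxd1 (Slc25a45), 0.714 for Mxi1 (Phkb) and 0.716 for Mnt (Rbsn).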

How the data were processed

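Polyadenylated RNA of mouse bone marrow was made into 24 libraries with the CATS RNA-seq Kit v2, per the labels' protocols. The deposited table gives, for every gene in each library, a signal that its file name calls a normalised count. The submitters' processing notes name STAR and mm10. The counter, the annotation, the normalization tool, strand and molecular identifiers are not given in the sources used here. Dividing a column by its smallest positive value gave whole numbers for 100% of values (relative tolerance 1e-06), which were taken as reads, 807686 to 8229715 per library. Names came from the table for 16217 genes and from GENCODE M21 (GRCm38) for 10010.

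Only genes reaching a normalised count of 10 in 2 or more libraries (12628) were kept. Their log2(value + 1) was fitted with limma 3.58.1 under R 4.3.3, using 8 group means, a trended prior variance and Benjamini-Hochberg adjustment at 0.05, with 15 comparisons. As alternatives, edgeR 4.0.16 and DESeq2 1.42.0 were run on the reads, calling 3622 and 3697 genes in the averaged poly(I:C) comparison, against 2974 by limma. Fits were tested on simulated data. Members and lists were chosen with earlier results of these data known. Named genes are all members, the 3 largest called rises and falls of each list under poly(I:C), Pvt1, the 3 genes most similar to each member with a mean of at least 50, and Mki67, Mpo, Mecom and Dntt. A gene that this rule names in the list of turnover regulators is not reported here. Samples carry numbers in their titles. Deviations from group means correlated at 0.412 to 0.632 in the 3 same-numbered pairs of WT with poly(I:C) and PBS, and at 0.396 to 0.734 in those of FancgKO and WT with PBS, so these comparisons were treated as paired, as were FancgKO against WT with poly(I:C) (0.458 to 0.818), Mdm4Tg against WT (0.478 to 0.522) and FancgKO_Mdm4Tg against WT (0.420 to 0.618). The comparisons with 2 same-numbered pairs were not treated as paired. Their pairs correlated at 0.744 to 0.787 in FancgKO_Mdm4Tg against FancgKO with poly(I:C) and at 0.459 to 0.523 with PBS. For poly(I:C) against PBS they correlated at 0.474 to 0.56 in Mdm4Tg, 0.237 to 0.62 in FancgKO_Mdm4Tg and 0.0951 to 0.599 in FancgKO. Alternatives were other pseudocounts, filters and scalings, the replicate number as a block, the title suffix, Xist or depth as a covariate, array weights, only the compared groups, the count tests and each library left out. The 19 libraries with Xist of at most 1000, and leaving out both PBS libraries numbered 6, were alternatives chosen after seeing the data. Tables and figures were made with python 3.11.15, numpy 2.4.6, pandas 2.3.3 and matplotlib 3.10.9.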

Additional observations from a re-analysis of the deposited data

How the results depend on the processing

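For the averaged poly(I:C) comparison, the number of members called was 4, and it was 5 with edgeR and with the title suffix as a covariate, and 2 without the filter on low values and 2 with log depth as a covariate. It ran from 2 to 5 when each library was left out, falling to 2 without FancgKO replicate 6, FancgKO_Mdm4Tg replicate 8, Mdm4Tg replicate 7 or Mdm4Tg replicate 8, all with poly(I:C). Myc targets called higher numbered 24, with 1 under the depth covariate, 15 with low Xist and 12 to 29 with each library left out. All genes called numbered 2974, with 610 under the depth covariate and 1554 to 3584 with each library left out. In WT, where 0 members were called, the replicate block, the title suffix, DESeq2 and leaving out both PBS libraries numbered 6 each gave 1 and array weights 3, and leaving out each library gave 0 to 1 (1 without WT replicate 6 or FancgKO replicate 6 with PBS, or FancgKO replicate 7 with poly(I:C)). All genes called in WT rose as well, from 2 to 869 with the block, 350 with the title suffix and 239 with DESeq2. They numbered 610 without the 2 PBS libraries numbered 6, 1659 with array weights, and 0 to 520 with each library left out. In Mdm4Tg the block and array weights each gave 1 in place of 0, while all genes called went from 0 to at most 612 under the alternatives. The cause was not tested.

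Reversals were limited to differences that had not passed. In the averaged comparison, Mxd3 turned to 0.11 under quantile scaling and ran from -0.0984 to 0.0463 with each library left out. Mxi1 turned to -0.00308 under the block and -0.000144 under the depth covariate, with -0.0148 to 0.108 on leaving out libraries. Mnt turned to -0.00351 under array weights and -0.0803 with low Xist, with -0.0139 to 0.0953. Pvt1 turned to -0.0500 under the block and -0.0222 under the depth covariate. In FancgKO the depth covariate gave -0.0220 for Max and 0.10 for Mxd4, and leaving out libraries gave -0.261 to 0.0580 for Mxd4. In FancgKO_Mdm4Tg, leaving out libraries gave -0.0388 to 0.389 for Max and -0.747 to 0.00145 for Mxd4.

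With the replicate number as a block in the averaged comparison, Max was called (0.26, limma adjusted p = 0.00789) and Mga and Tert were not (-0.16 at 0.0510 and -0.73 at 0.0628). Eno1 stood at 0.44 in place of 0.68. In the average over transgene and treatment, Fancg loss gave a Pvt1 difference of 0.87 with the block, called at a limma adjusted p of 0.0188. Mycn in FancgKO_Mdm4Tg against WT with PBS was -0.44 with the block and -0.33 without it. Same-numbered samples correlated at 0.0951 to 0.818 over 61 pairs (median 0.48), against a median of -0.289 over 189 pairs with other numbers. The averaged comparisons were still fitted without the block in the main results, so their blocked values are given separately. Within the 9 same-numbered pairs Mycn was lower and Max higher in all 9, as were 4.36% and 4.77% of all genes in those directions. In no paired comparison did the block change the call of another member. The counts of Mycl and Mxd3 limit what can be seen at this depth.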
